A study of Mus musculus with 5 samples.

Results

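The 10 transcription factors described here, Sox10, Olig1, Olig2, Myrf, Nkx6-2, Nkx2-2, Sox8, Sox2, St18 and Zeb2, were taken by name from the 11733 genes of the expression matrix, and all 10 were present. They were followed across the 12 deposited population labels of oligodendrocyte (OL) lineage cells and across both libraries. Single cells were isolated at P60 (postnatal day 60) from the corpus callosum, the white matter tract that joins the hemispheres, of mice that combine Emx1::Cre with Sox10::Cre-LoxP-GFP-STOP-TdTom, of mixed CBA and C57BL/6 background, with tissue of 2 mice pooled. Emx1::Cre acts in the dorsal forebrain, so that TdTom+ cells are of dorsal origin and GFP+ cells of ventral origin, and both groups carry the same alleles, with a reporter that is active in Sox10-expressing cells. Cells were sorted by colour, and 1 droplet library of 3′ transcript ends was made for each origin. The TdTom+ library held 1901 cells with a median of 3340 UMIs (unique molecular identifiers, each read as 1 transcript molecule), and the GFP+ library held 952 cells with a median of 3307 UMIs. The 3 spinal cord samples of the series were not analysed here.

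In the OL lineage, oligodendrocyte precursor cells (OPCs) pass through committed precursors and newly formed OLs (COP/NFOL) and myelin-forming OLs (MFOL) to mature OLs (MOL). Olig1 and Olig2 are basic helix-loop-helix factors, and Olig2 is needed to specify the lineage. Sox10 and its close relative Sox8 are SoxE factors, and Sox10 is kept from the precursor to the myelinating cell, where it works with Myrf, the membrane-anchored factor that starts and maintains myelin gene transcription. Sox2 is a SoxB1 factor of neural stem and precursor cells, Nkx2-2 and Nkx6-2 are homeodomain factors, and St18 and Zeb2 are zinc finger proteins. Zeb2 is known to promote myelination, and Nkx6-2 is known for its place in mature OLs.

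The labels could be read in the marker genes, since all 7 OPC markers were highest in OPC and all 10 MOL markers in a MOL label, as were 6 of 7 markers in COP/NFOL and 4 of 5 in an MFOL label. OPC held 83 cells and COP/NFOL 19, of which 8 came from the GFP+ library, whereas the 8 MOL labels held between 123 cells (MOL2/4) and 451 (MOL6a). The median depth was 8215 UMIs in COP/NFOL against 2895 in OPC, and levels are therefore given as CPM, the summed UMIs of a gene per 1000000 UMIs of the group. Intervals are exact, at 95%, except for a difference between shares of cells, where the interval is approximate. They cover counting error only, since 1 library per origin leaves no replicate and no test was made. The labels were made by clustering these same cells, so that a contrast between labels is a description. Microglial markers (6 of 8 in the matrix) gave 93 UMIs, 84 of them in 1 TdTom+ cell labelled MFOL2, which held 1 UMI of Zeb2, 1 of Sox10 and 1 of Olig1. Of the microglial genes, Tmem119 and P2ry12 are not rows of the matrix. The libraries shared 1 cell barcode.

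Olig1, Olig2 and Sox8 were highest in OPC and Sox2 and Nkx2-2 in COP/NFOL, whereas Nkx6-2, St18 and Myrf had few UMIs in OPC. Of the 10 factors, 5 were at least 2-fold higher in 1 label than in all other cells, where 22.4% of the 2958 genes that average 50 CPM or more passed the same limit. These 5 were the factors named as highest in OPC or COP/NFOL. Of the other 5 factors, Sox10 reached a fold of 1.53 in COP/NFOL, St18 1.36 in MOL4-5/6, Myrf 1.22 in COP/NFOL, Nkx6-2 1.19 in MOL4-5/6 and Zeb2 1.13 in MFOL1. The highest label was the same in both libraries for Olig1, Olig2, Sox8, Sox10, Sox2, Nkx2-2 and St18.

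**Figure D1:**
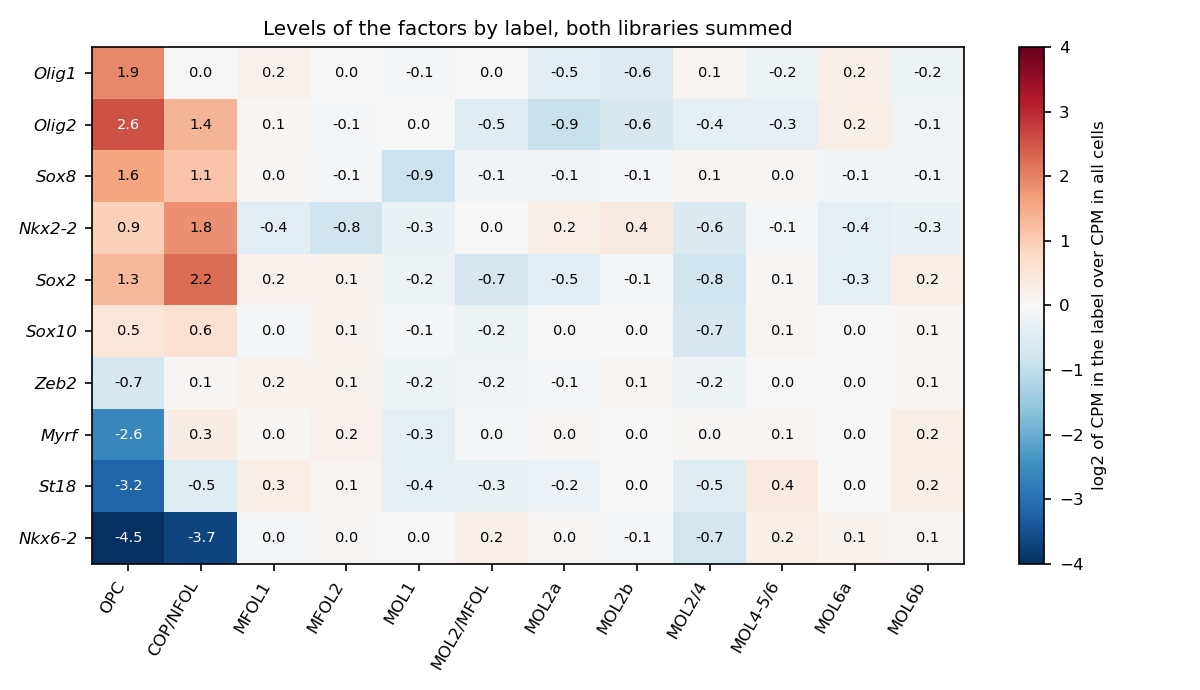
The log2 ratio of each factor's CPM in a label (columns) over its CPM in all cells (rows are factors), with both libraries summed and 1 CPM added. Olig1, Olig2 and Sox8 are highest in OPC, Sox2 and Nkx2-2 in COP/NFOL, and Nkx6-2, St18 and Myrf are lowest in OPC.

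Olig2 (chr16:91225457-91228677 of GRCm38, plus strand) had 1194 CPM in OPC (1066 to 1333, 317 UMIs) against 177 CPM in all other cells, a fold of 6.73. Both libraries held it at that level, with 1245 CPM in TdTom+ OPCs and 1123 CPM in GFP+ OPCs. It was next highest in COP/NFOL, at 442 CPM in TdTom+ and 615 CPM in GFP+ cells, and lay between 109 CPM (MOL2a) and 238 CPM (MOL6a) in the 8 MOL labels. Along its order of labels, neighbours had separate intervals at 2 of 11 places.

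Olig1 (chr16:91269772-91271933, plus strand), which starts 41095 bp from the end of Olig2, had 4776 CPM in OPC (4517 to 5047, 1268 UMIs) against 1160 CPM in all other cells. The TdTom+ and GFP+ OPCs, at 4830 and 4700 CPM, had overlapping intervals. In contrast to Olig2, Olig1 in COP/NFOL was within the range of the later labels with the libraries summed, at 1269 CPM. TdTom+ cells gave 962 CPM, and GFP+ cells, at 1650 CPM, lay above the later GFP+ labels (869 to 1483 CPM). The lowest level of Olig1 was 851 CPM in MOL2b.

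Sox8 had 411 CPM in OPC (337 to 495, 109 UMIs) and 131 CPM in all other cells, a fold of 3.12. It stood at 432 and 380 CPM in TdTom+ and GFP+ OPCs, and its lowest level was 74.8 CPM in MOL1, which was the lowest label in both libraries. The intervals of OPC and COP/NFOL (303 CPM, 218 to 409) overlapped.

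Sox2 had 642 CPM in COP/NFOL (515 to 789, 89 UMIs) and 331 CPM in OPC (266 to 408), against 119 CPM over all MOL labels. The COP/NFOL level was 754 CPM (573 to 975) in TdTom+ cells and 501 CPM (341 to 712) in GFP+ cells, from 11 and 8 cells. Nkx2-2 was also highest there, at 202 CPM (134 to 292, 28 UMIs), with 143 CPM in TdTom+ and 275 CPM in GFP+ cells. It was the sparsest of the factors, with 604 UMIs in all, and its neighbours in the order of labels had overlapping intervals at all 11 places.

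**Figure D2:**
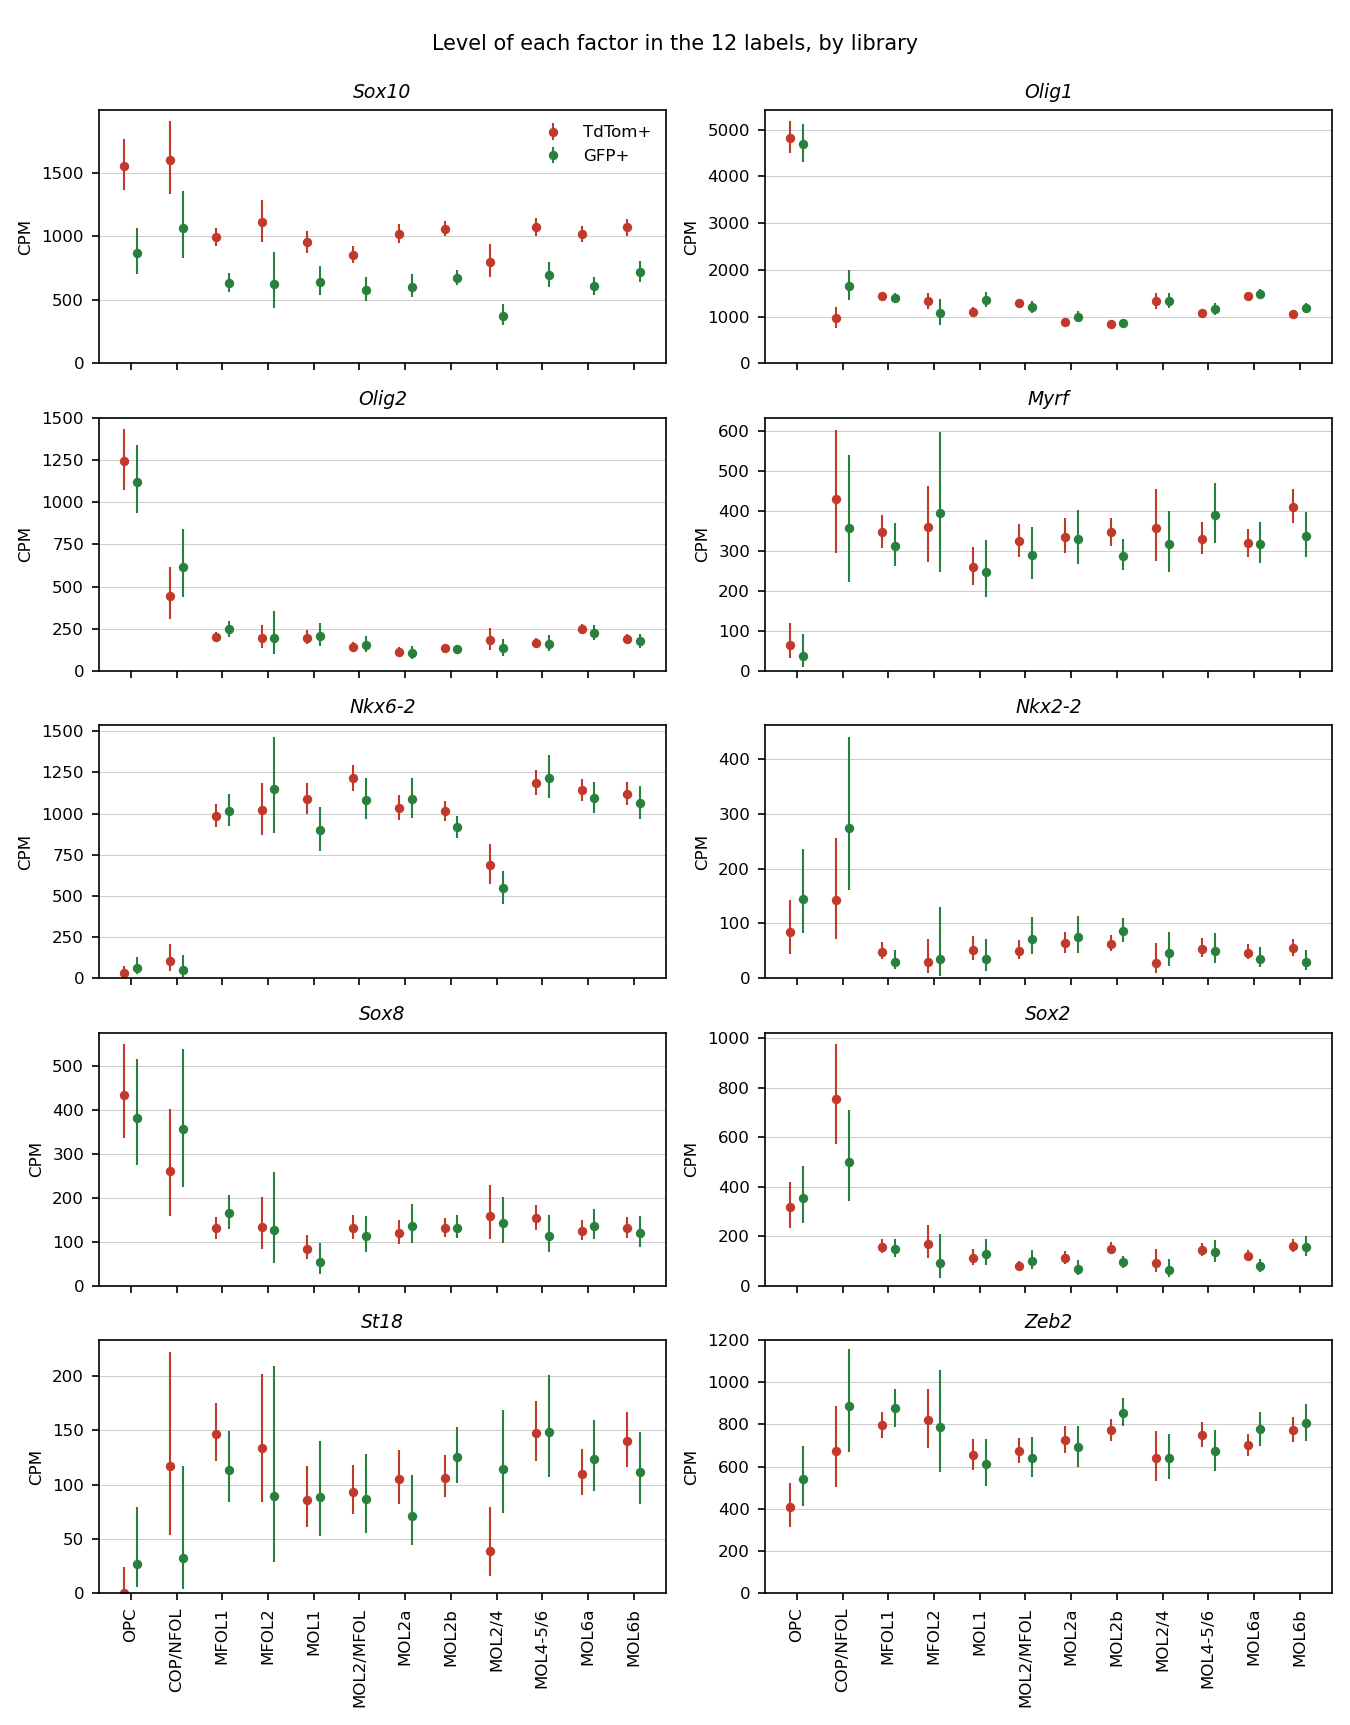
CPM of each factor (vertical axes, from 0) in the 12 labels (horizontal axes) for the TdTom+ library (red) and the GFP+ library (green), with exact Poisson intervals at 95%. In both libraries Olig1, Olig2 and Sox8 are highest in OPC, the libraries part for St18 in MOL2/4, and Sox10 is higher in TdTom+ cells in all 12 labels.

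Between OPC and all MOL labels summed, 4 factors were at least 2-fold higher and 3 at least 2-fold lower in OPC, against 10.9% and 20.1% of 2958 genes. The higher ones were Olig2, with a log2 ratio of 2.84 (2.67 to 3.03), Olig1 at 2.09 (2.01 to 2.18), Sox8 at 1.69 (1.40 to 1.98) and Sox2 at 1.47 (1.15 to 1.79). Nkx2-2 was at 0.97 (0.39 to 1.53), with 0.62 (-0.29 to 1.43) in TdTom+ and, past 2-fold, 1.33 (0.50 to 2.09) in GFP+ cells. Sox10 was at 0.52 (0.36 to 0.68). Zeb2 was lower in OPC, at -0.66 (-0.93 to -0.41), with 463 CPM against 734 CPM.

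The 3 low factors differed in how little was found in OPC. Nkx6-2 had 12 UMIs in OPC, 5 of them in TdTom+ and 7 in GFP+ cells, which is 45.2 CPM against 1065 CPM over all MOL labels. Its log2 ratio was -4.53 (-5.51 to -3.75). Myrf had 14 UMIs in OPC, 52.7 CPM against 330 CPM, and a log2 ratio of -2.62 (-3.52 to -1.90). St18 had 3 UMIs in OPC, 11.3 CPM against 112 CPM, and a log2 ratio of -3.20 (-5.59 to -1.76). All 3 UMIs came from GFP+ OPCs. In the TdTom+ library, where the floor of 3 counts is 19.3 CPM, St18 was at that floor at least 5.79-fold lower in OPC than in MOL. The exact interval of its log2 ratio there had an upper end of -2.23, which is a weaker bound. In the GFP+ library the St18 log2 ratio was -2.01 (-4.34 to -0.49), and its 3 UMIs lay in 1 of 35 OPCs.

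OPC was also the label with the highest level of the astrocyte markers (7 of 7 in the matrix, 983 CPM summed, lowest label 86.5 CPM) and of the neuronal markers (6 of 7 in the matrix, 1028 CPM). Taken singly, 5 of the 7 astrocyte markers and 4 of the 6 neuronal markers were highest in OPC. In the 67 OPC cells with fewer than 3 astrocyte markers, Olig1 stood at 4658, Olig2 at 1169, Sox8 at 416 and Sox2 at 332 CPM, and in the 16 OPC cells with at least 3 they stood at 5264, 1297, 387 and 329 CPM. Nkx6-2 was at 37.4 CPM in those 67 cells and at 77.4 CPM in those 16. OPC held 12 UMIs of Nkx6-2 in all, too few to tell these levels apart. The part of the neuronal markers was not tested.

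RefSeq promoter windows of the mouse build GRCm38.p6, with 250 bases before and 50 after a transcript start, were at hand for 6 of the 10 factors. The windows below belong to 3 factors that were high in OPC (Olig2, Sox8 and Sox2) and to Nkx6-2, the factor with the lowest ratio. They are shown because the E-box, read as CANNTG, is the core motif of helix-loop-helix proteins such as the Olig factors, and ACAAAG and ACAATG are core motifs of Sox proteins. Capitals mark these motifs, searched on both strands, and the matches do not overlap each other.
Olig2, chr16:91225300-91225599, plus strand: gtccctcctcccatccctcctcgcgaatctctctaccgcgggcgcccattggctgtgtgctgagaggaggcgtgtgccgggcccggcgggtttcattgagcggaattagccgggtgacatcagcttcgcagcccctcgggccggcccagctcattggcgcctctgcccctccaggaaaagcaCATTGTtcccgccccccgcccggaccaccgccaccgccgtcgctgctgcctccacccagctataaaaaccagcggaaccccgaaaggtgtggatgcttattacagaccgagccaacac
Sox8, chr17:25570637-25570936, minus strand: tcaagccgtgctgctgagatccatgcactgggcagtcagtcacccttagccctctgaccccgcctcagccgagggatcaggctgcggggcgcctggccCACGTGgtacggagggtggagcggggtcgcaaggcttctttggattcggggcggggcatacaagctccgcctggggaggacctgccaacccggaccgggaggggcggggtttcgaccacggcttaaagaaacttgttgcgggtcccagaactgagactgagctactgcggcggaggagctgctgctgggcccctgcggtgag
Sox2, chr3:34649745-34650044, plus strand: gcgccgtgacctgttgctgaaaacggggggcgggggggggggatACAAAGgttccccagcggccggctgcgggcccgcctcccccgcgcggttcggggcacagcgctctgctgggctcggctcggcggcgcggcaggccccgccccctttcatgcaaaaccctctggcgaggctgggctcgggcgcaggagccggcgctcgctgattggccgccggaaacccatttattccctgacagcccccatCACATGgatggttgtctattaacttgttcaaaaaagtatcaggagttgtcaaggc
Nkx6-2, chr7:139582748-139583047, minus strand: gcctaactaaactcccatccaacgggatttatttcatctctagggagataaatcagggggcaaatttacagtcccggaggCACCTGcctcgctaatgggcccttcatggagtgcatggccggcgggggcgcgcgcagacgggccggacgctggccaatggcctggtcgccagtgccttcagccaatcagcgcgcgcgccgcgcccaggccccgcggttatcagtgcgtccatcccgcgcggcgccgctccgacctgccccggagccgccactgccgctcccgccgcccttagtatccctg

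The Olig2 window held 1 ACAATG, read on the opposite strand, and no E-box. The Sox8 and Nkx6-2 windows each held 1 E-box, and the Sox2 window held 1 E-box and 1 ACAAAG. The Nkx2-2 window held 3 E-boxes and neither Sox motif. Zeb2 had several windows, of which the one at chr2:45110228-45110527 held 1 ACAAAG and no E-box, and the others held no match. Among 32851 windows of 300 bp, 72.3% held an E-box, 18.7% held ACAAAG and 12.6% held ACAATG. A match describes the letters of the window and does not show binding.

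The steps between labels at which the factors differed were not the same. From OPC to COP/NFOL, 2 factors were at least 2-fold higher and 2 at least 2-fold lower, against 13.2% and 14.4% of genes. Myrf had 52.7 CPM in OPC and 396 CPM in COP/NFOL, a log2 ratio of 2.89 (2.04 to 3.87). St18 had 11.3 and 79.3 CPM, a log2 ratio of 2.71 (0.89 to 5.29). Myrf was higher in COP/NFOL than in OPC in both libraries, at 429 against 64.5 CPM in TdTom+ and 356 against 36.2 CPM in GFP+ cells. For St18 the GFP+ library held 2 UMIs in COP/NFOL and 3 in OPC, at 32.3 and 27.2 CPM, so that the higher level rested on 9 UMIs in TdTom+ cells. Olig1 was lower by a log2 ratio of -1.91 (-2.15 to -1.68) and Olig2 by -1.20 (-1.59 to -0.83), with Olig2 at -0.87 (-1.43 to -0.33) in the GFP+ library alone. The set of factors past 2-fold on this step depended on the library. In TdTom+ cells alone Nkx6-2, at 1.66 from 5 and 8 UMIs, and Sox2, at 1.25, also passed, whereas in GFP+ cells, where they were at -0.38 and 0.50, Myrf was the one that passed upward and Olig1 the one that passed downward.

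Nkx6-2 was high from MFOL1 on, whereas Myrf was already high in COP/NFOL. Nkx6-2 had 79.3 CPM in COP/NFOL (39.6 to 142, 11 UMIs) and 996 CPM in MFOL1 (942 to 1053, 1252 UMIs), a log2 ratio of 3.63 (2.81 to 4.66). The libraries gave 104 and 985 CPM in TdTom+ cells, and 48.5 and 1017 CPM in GFP+ cells. It was the 1 factor that was at least 2-fold higher in MFOL1 than in COP/NFOL with the libraries summed, against 18.3% of genes. In GFP+ cells alone St18 also passed, at 1.78 (-0.12 to 4.89), from 2 UMIs in COP/NFOL. On the same step 4 factors were at least 2-fold lower, against 14.7% of genes. They were Nkx2-2 at -2.23 (-2.95 to -1.54), Sox2 at -2.05 (-2.42 to -1.68), Olig2 at -1.27 (-1.66 to -0.88) and Sox8 at -1.09 (-1.59 to -0.57). The Nkx2-2 ratio was -1.54 in TdTom+ and -3.15 in GFP+ cells, and that of Sox8 in TdTom+ cells was -0.996. Sox10 was at -0.65 (-0.87 to -0.42), with 868 CPM in MFOL1 against 1362 CPM in COP/NFOL, and the Myrf interval held 0.

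Between MFOL1 and all MOL labels, 0 of 10 factors differed by at least 2-fold in either direction, where 3.38% of genes were higher and 1.52% lower in MOL. Nkx2-2 had a log2 ratio of 0.38 (-0.02 to 0.82), from 0.15 (-0.32 to 0.67) in TdTom+ and 0.90 (0.11 to 1.87) in GFP+ cells. Sox2 and Olig2, both at -0.37, Olig1 at -0.35, St18 at -0.27 and Zeb2 at -0.17 had intervals below 0, and Nkx6-2, at 0.10 (0.01 to 0.18), had one above 0. The libraries parted for Nkx6-2, at 0.16 (0.05 to 0.26) in TdTom+ and -0.03 (-0.17 to 0.12) in GFP+ cells. For St18 they gave -0.39 (-0.67 to -0.10) and -0.005 (-0.44 to 0.46). The Olig2 interval in TdTom+ cells alone held 0 (-0.47 to 0.02).

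Among the 8 MOL labels, the highest level was at least 2-fold over the lowest for 2 factors with the libraries summed, where 43.1% of genes passed that limit. It was so for 4 factors in TdTom+ cells alone (46.2% of genes), where Nkx2-2 and St18 also passed, and for 6 in GFP+ cells alone (67.1% of genes), where Nkx6-2 and Sox8 passed as well. Olig2 had 238 CPM in MOL6a and 109 CPM in MOL2a, a ratio of 2.17, and Sox2 had 159 CPM in MOL6b and 77.3 CPM in MOL2/4, a ratio of 2.04. Zeb2 had the smallest ratio, 1.26.

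With the libraries summed, MOL2/4 held the lowest MOL level of 6 factors, where 44% of genes were lowest there. Of these, Sox10 and Nkx6-2 were lowest in MOL2/4 in each library, whereas Nkx2-2, St18 and Zeb2 were in TdTom+ cells alone and Sox2 in GFP+ cells alone. Against the other 7 MOL labels together, 0 factors were at least 2-fold higher or lower, where 3.85% and 15.7% of genes passed. Nkx6-2 came nearest, with 608 CPM against 1087 CPM, a log2 ratio of -0.84 (-1.03 to -0.65). It was lower in both libraries, at 685 against 1111 CPM in TdTom+ and 545 against 1036 CPM in GFP+ cells. Sox10 had 569 CPM against 897 CPM (-0.66, -0.85 to -0.47), and MOL2/4 took 3.16% of TdTom+ and 6.62% of GFP+ cells. Within each library Sox10 was still lower in MOL2/4, at 800 against 1014 CPM in TdTom+ and 375 against 650 CPM in GFP+ cells. St18 had 79.8 CPM against 114 CPM (-0.51, -1.07 to -0.01), and here the libraries parted, with 38.3 against 114 CPM in TdTom+ and 114 against 113 CPM in GFP+ cells. Olig1 was higher there, at 1334 against 1108 CPM (0.27, 0.14 to 0.39).

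Shares of cells with at least 1 UMI were taken after each cell had been thinned to 2400 UMIs, with 150 cells of the TdTom+ library and 74 of the GFP+ library below that depth and left out. Olig2 was found in 88.7% of 71 OPCs (79.0 to 95.01), in 66.7% of 18 COP/NFOL cells (41.0 to 86.7) and in 33.4% of 2225 MOLs (31.5 to 35.4). Nkx6-2 was found in 7.04% of OPCs (2.33 to 15.7), in 16.7% of COP/NFOL cells (3.58 to 41.4) and in 91.1% of MOLs (89.9 to 92.3). Myrf was found in 12.7% of OPCs (5.96 to 22.7) and in 55.6% of MOLs (53.5 to 57.7), and St18 in 1 of 71 OPCs, 1.41% (0.0357 to 7.60), and in 23.1% of MOLs (21.3 to 24.9). Sox8 was found in 54.9% of OPCs (42.7 to 66.8), 33.3% of COP/NFOL cells (13.3 to 59.0) and 26.0% of MOLs (24.2 to 27.9). The higher CPM of Sox2 and Nkx2-2 in COP/NFOL than in OPC was not seen in these shares, which were 50% (26.0 to 74.0) against 52.1% (39.9 to 64.1) for Sox2 and 27.8% (9.69 to 53.5) against 23.9% (14.6 to 35.5) for Nkx2-2. Zeb2 was found in 62.0% of OPCs (49.7 to 73.2) and 81.0% of MOLs (79.3 to 82.6), with 51.2% and 80.5% in TdTom+ cells and 76.7% (57.7 to 90.1) and 81.9% in GFP+ cells. Sox10 and Olig1 were found in nearly every OPC, at 98.6% and 100% (94.9 to 100). There was no population without OL factors in the sort from which to read the level of free RNA.

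**Figure D3:**
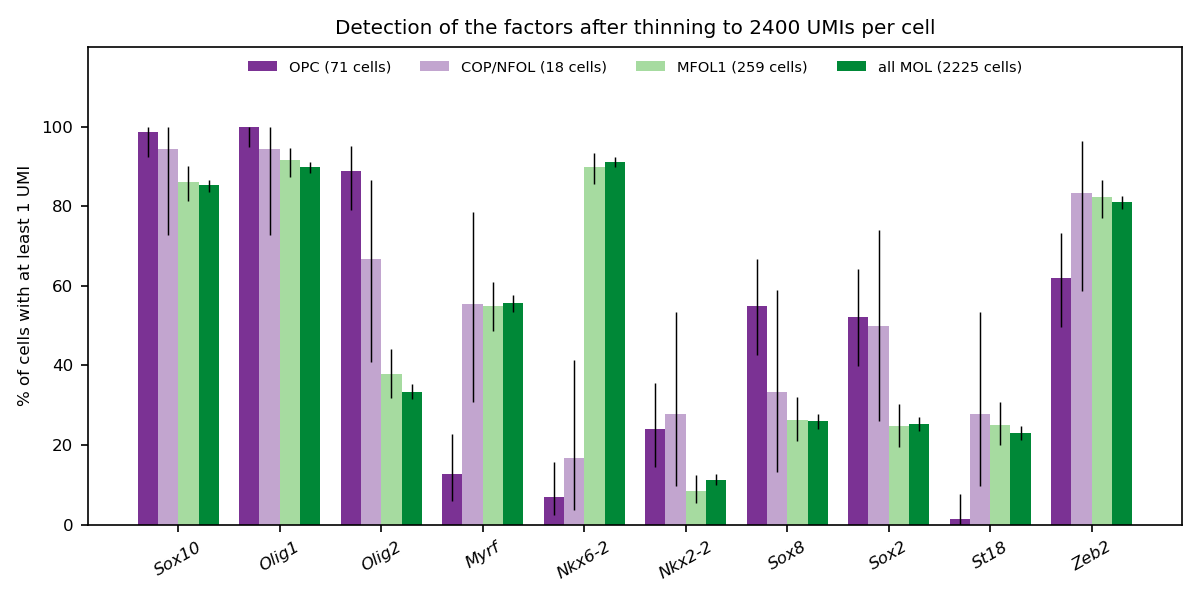
The percentage of cells with at least 1 UMI of each factor (vertical axis) in OPC, COP/NFOL, MFOL1 and all MOL labels after thinning to 2400 UMIs per cell, both libraries together, with exact binomial intervals at 95%. Nkx6-2 goes from 7.04% of OPCs to 91.1% of MOLs, and Olig2 from 88.7% to 33.4%.

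A thinned cell held 5.22 of the 10 factors on average, with an SD of 1.27 over 2629 cells. The mean was 5.26 in the TdTom+ and 5.15 in the GFP+ library. It moved little over the lineage, from 4.64 in MOL2/4 to 5.50 in COP/NFOL, and was 5.01 in OPC. The number of factor UMIs per thinned cell moved more, from 9.49 in MOL2/4 to 20.6 in OPC. No cell was without any factor, 30.5% of cells held 5 of them, and 1 cell held all 10.

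Detection of pairs of factors in the same cell was set against their separate shares in each label and library. Of 45 pairs, 0 were seen in at least 1.5 times as many cells as the sum of products of the shares. Among all pairs of genes that average 50 CPM or more, 0.00357% passed that limit. The share was 0.00011% among those with a sum at least as large as the lowest of the 45 pairs of factors. For 30 of the 45 pairs, those with Sox10, Olig1, Nkx6-2 or Zeb2, the shares are so high that 1.5 could not be reached, and nothing is read from them. The other 15 pairs could have reached between 1.79 and 4.18, and for 11 of them the ratio lay between 0.9 and 1.1. The highest was 1.20 for Nkx2-2 and Sox2, found together in 98 cells against a sum of 81.5, and the lowest was 0.83 for Nkx2-2 and St18, in 56 cells against 67.2. Nkx2-2 was found in 12 of 37 OPCs with Sox2 (32.4%, 18.0 to 49.8) and in 5 of 34 without it (14.7%, 4.95 to 31.1). In MOLs it was found in 13.5% of cells with Sox2 (10.8 to 16.6) and in 10.5% without it (9.03 to 12.0). In both stages the intervals overlapped. Sox10 was found in 84.9% of MOLs with Olig2 (82.2 to 87.4) and in 85.3% of MOLs without it (83.4 to 87.1). Sox10 and Olig2 are among the 30 pairs above, so nothing is read from these shares either.

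**Figure D4:**
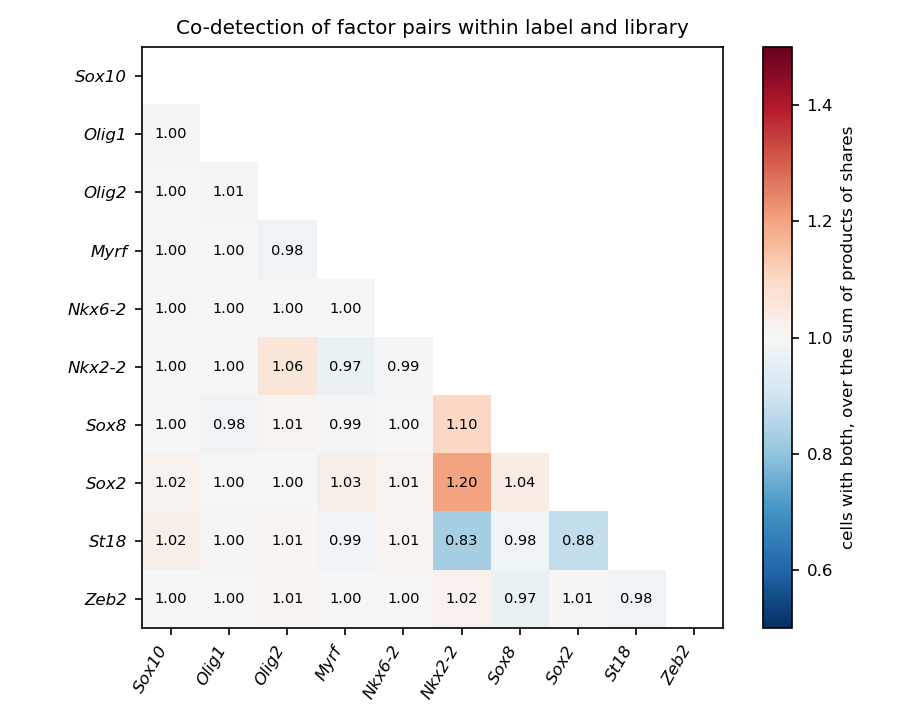
Cells that hold both factors of a pair, divided by the sum over labels and libraries of the products of their shares, for all 45 pairs, after thinning to 2400 UMIs. The ratios run from 0.83 to 1.20, and pairs with Sox10, Olig1, Nkx6-2 or Zeb2 lie near 1, as their high shares leave little room.

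The study compared cells of dorsal and ventral origin in the adult tract. Of the 10 factors, Sox10 alone was past a log2 ratio of 0.5 between the TdTom+ and GFP+ libraries, where 0.439% of 2958 genes were (0.135% higher and 0.304% lower in TdTom+). Sox10 had 1026 CPM in TdTom+ cells (1003 to 1050, 7317 UMIs) and 645 CPM in GFP+ cells (619 to 672, 2312 UMIs), a log2 ratio of 0.67 (0.60 to 0.74). It had the highest ratio of the 2958 genes. With both libraries brought to the same composition of labels the ratio was also 0.67.

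The Sox10 difference was found in every label. TdTom+ levels ran from 800 CPM (MOL2/4) to 1599 CPM (COP/NFOL), and GFP+ levels from 375 to 1067 CPM in the same labels. In all 12 labels the TdTom+ level was higher and the interval of the log2 ratio lay above 0. The ratio was lowest in MOL2/MFOL, at 0.56 (0.30 to 0.81), and highest in MOL2/4, at 1.09 (0.69 to 1.499). In OPC it was 0.84 (0.49 to 1.19), with 1554 CPM in TdTom+ and 869 CPM in GFP+ cells.

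Sox10 was found in 89.7% of TdTom+ and 78.0% of GFP+ cells after thinning, a difference of 11.6 percentage points (approximate interval 8.55 to 14.8), which was the largest of the 10 factors. Without thinning the shares were 95.2% and 88.7%. Among the other factors the differences lay between -2.25 points (Olig1) and 4.72 points (Myrf).

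Polr2f, which encodes a subunit shared by the RNA polymerases, lies next to Sox10, with the 3′ ends of the genes facing each other 3134 bp apart. Polr2f is on the plus strand at chr15:79141009-79151774 and Sox10 on the minus strand at chr15:79154908-79165240 of GRCm38. It had 176 CPM in TdTom+ and 263 CPM in GFP+ cells, a log2 ratio of -0.58 (-0.70 to -0.46), place 2952 of 2958 from the highest. Its interval lay below 0 in 8 of 12 labels and above 0 in none of them. Sox10 and Polr2f thus stood near opposite ends of the same order of genes. Sox10 sequence drives the reporter that the sort was based on, and what the reporter adds to either gene's counts was not tested. Library and origin cannot be told apart in this design.

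The other 9 factors lay between -0.13 (Nkx2-2) and 0.22 (Sox2). Sox2 had 143 CPM in TdTom+ and 122 CPM in GFP+ cells (0.06 to 0.39), a log2 ratio of 0.22. Nkx6-2 and Myrf were each at 0.13, with intervals of 0.07 to 0.19 and 0.02 to 0.23, and Olig1 at -0.09 (-0.14 to -0.03). At the same composition of labels Nkx6-2 was at 0.08, Myrf at 0.12, Olig1 at -0.05 and Sox2 at 0.27. The intervals of Olig2, Nkx2-2, Sox8, St18 and Zeb2 held 0. The median absolute log2 ratio was 0.11 over the 10 factors and 0.07 over all 2958 genes.

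Within labels some ratios were larger. Sox2 was at 0.72 (0.0042 to 1.52) in MOL2a, 0.67 (0.27 to 1.099) in MOL2b and 0.63 (0.09 to 1.21) in MOL6a. Olig1 was lower in TdTom+ than in GFP+ COP/NFOL cells, with 74 and 102 UMIs and a log2 ratio of -0.78 (-1.23 to -0.33). St18 was lower in TdTom+ than in GFP+ MOL2/4 cells, with 7 and 25 UMIs, 38.3 against 114 CPM and a log2 ratio of -1.55 (-3.03 to -0.33). These were picked out after the values of 12 labels for each of 10 factors had been seen.

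**Figure D5:**
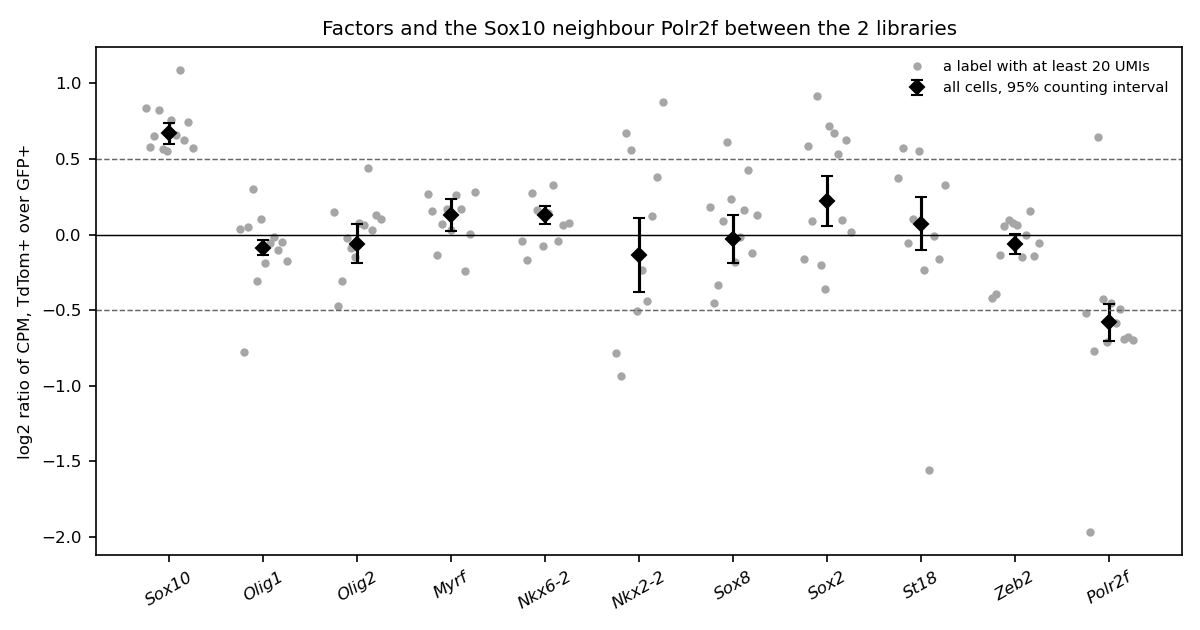
The log2 ratio of CPM between the TdTom+ and GFP+ libraries (vertical axis) for the 10 factors and Polr2f, over all cells (black diamonds, exact counting intervals at 95%) and in each label with at least 20 UMIs (grey points). Sox10 is at 0.67 with every label above 0.5, Polr2f is at -0.58, and over all cells the other factors lie between the dashed lines at -0.5 and 0.5.

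Astrocyte markers stood at 225 CPM in TdTom+ cells and at 221 CPM in GFP+ cells. Sox2, which astrocytes also express, had 172 CPM in the 45 MOLs with at least 3 astrocyte markers and 117.7 CPM in the other MOLs. Zeb2 in MFOL2 was at 811 CPM with the microglial cell and at 822 CPM without it.

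Of 34 further factors of the lineage, 31 were rows of the matrix and 19 had a mean of at least 10 CPM. Of these, 6 were at least 2-fold higher in OPC than in MOL, 3 at least 2-fold lower and 10 lay between, against 24% and 13% of 7673 genes. Of the 6, the 3 named next were under 10 CPM in MOL and passed that mean only through other labels, so that a high level outside MOL follows in part from the limit, and the other 12 rows lay under it. Sox6, a SoxD factor, had 429 CPM in OPC (114 UMIs) and 0.679 CPM in MOL (6 UMIs). Hes5, an effector of Notch signalling, had 426 CPM in OPC (113 UMIs) and 1.02 CPM in MOL (9 UMIs), and Sox4, a SoxC factor, had 595 and 6.79 CPM. The lowest were the homeodomain factor Prox1 at a log2 ratio of -2.03 (-3.01 to -1.24), the zinc finger protein Zfp536 at -1.82 (-2.68 to -1.11) and Tfeb, a regulator of lysosomal genes, at -1.63 (-3.997 to -0.15, 3 UMIs in OPC). In the TdTom+ and GFP+ libraries alone, Prox1 was at -1.68 and -2.73, and Tfeb at -2.40 and -0.89.

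Of 22 genes that are known to be bound or driven by Myrf, Sox10 or Olig2, 3 were at least 2-fold higher and 19 at least 2-fold lower in OPC, against 24% and 13% of 7673 genes. The 3 high ones, which also passed the mean of 10 CPM only through labels other than MOL, were the precursor genes Pdgfra (1898 CPM in OPC, 1.70 in MOL), Cspg4 (335 and 0.793) and Gpr17 (644 and 2.83), which encode a growth factor receptor, a proteoglycan and a G protein-coupled receptor. Mog, a myelin surface protein, had a log2 ratio of -5.40 (-6.501 to -4.56), with -6.31 in TdTom+ and -4.71 in GFP+ cells, and Trf, which encodes transferrin, -5.23 (-5.92 to -4.65). Enpp6, a choline phosphodiesterase, had 0 UMIs in OPC and, at the floor of 3 counts, was at least 9.43-fold lower there than in MOL. The exact interval of its log2 ratio had an upper end of -2.94, which is a weaker bound. The median log2 ratio of the 22 genes was -4.40, or -4.30 with Enpp6 at its bound, and that of all genes of at least 10 CPM was 0.39.

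Over the 12 labels, likeness to the factors was taken as Pearson's r of log2(CPM + 1), over points that share the 2 libraries. The genes named had the highest r among the 2958 genes that average 50 CPM or more, so high values follow in part from that choice. For Nkx6-2, Myrf and St18 the low level in OPC weighs heavily in r, and 20.1% of these genes were at least 2-fold lower in OPC than in MOL. Nkx6-2 was most like Fnbp1 (r = 0.995) and Pigz (r = 0.993), Myrf most like Cpm (r = 0.982), St18 most like Map6d1 (r = 0.987) and Smad7 (r = 0.986). Sox8 was most like Stx16 (r = 0.973), Sox2 most like Ube3a (r = 0.972), Sox10 most like 2010107E04Rik (r = 0.967) and Zeb2 most like Ppp2r3a (r = 0.963). Nkx2-2 was most like Arf6 (r = 0.953) and Olig1 most like Ddx18 (r = 0.912). Within 1 library these values were lower, apart from St18 with Map6d1 in TdTom+ cells (0.988, with 0.76 in GFP+ cells). Zeb2 with Ppp2r3a, for example, had 0.88 in TdTom+ and 0.57 in GFP+ cells. Nkx2-2 with Arf6 had 0.67 and 0.68, and Olig1 with Ddx18 0.65 and 0.70. Of the pairs of factors, Myrf and St18 had an r of 0.94 with the libraries summed, 0.95 in TdTom+ and 0.65 in GFP+ cells, and Nkx6-2 and Sox8 an r of -0.92, -0.94 and -0.84. Between the libraries, the r of a factor with itself over the 12 labels ran from 0.65 for St18 to 0.98 for Myrf.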

How the data were processed

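Single-cell RNA-seq of TdTom+ and GFP+ cells (1 library each) was analysed. The authors processed reads with Cell Ranger 2.1.1 and build mm10, per the submitters' processing notes, and with STAR per the study's methods of a version not given in the sources used here. Cells were filtered by the authors on their number of genes and share of mitochondrial UMIs. The deposited matrix holds a signal, each gene's fraction of the cell's UMIs. Dividing by the smallest value of each cell gave whole numbers (within 0.01) for 100% of values above 0, and these recovered UMI counts were used although the plan assumed plain counts. The other 37 columns of the deposited table of cells, cell-level measures and labels, were not used.

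UMIs were summed by label and library (Python 3.11.15, numpy 2.4.6, scipy 1.17.1). Intervals were exact Poisson, Clopper-Pearson or conditional binomial at 95%. That of a difference between shares of cells was approximate and combined the Clopper-Pearson limits of both shares. Log2 ratios had a pseudocount of 1 CPM, and calls needed 2-fold between labels, a log2 ratio of 0.5 between libraries, or 1.5 times for pairs. Comparisons over all genes used a mean of at least 50 CPM, and the gene lists at least 10 CPM. Total depth was 7129294 UMIs (TdTom+) and 3584940 (GFP+). Alternatives used edgeR 4.0.16 TMM factors and Scrublet in scanpy 1.11.5, which marked 8 cells (0.280%), all in the GFP+ library. On simulated Poisson counts with 200 of 2955 genes changed between the libraries, 100% had the right direction and 95.5% of intervals held the true value. The simulation held counting error only, so it checks the calculation and not how well the intervals suit these data. The genes named were the 10 factors, Polr2f, genes most like the factors (not all are reported here), and the 3 highest and 3 lowest of each list by the OPC to MOL ratio. The factors and lists were chosen with earlier results of these data known.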

Additional observations from a re-analysis of the deposited data

How the results depend on the processing

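No paired analysis was possible because each origin had a single library. The 5 factors at least 2-fold higher in 1 label were the same 5 under 7 of 8 alternatives (mean of cell CPM, thinning, each library alone, 7 merged labels, doublets, all 8 of them GFP+, or the microglial cell left out), and a limit of 1.5 added Sox10, for 6. Sox10 alone was past a log2 ratio of 0.5 between the libraries under the 6 alternatives that recompute the ratios, while the 2 that change the filter of genes leave them as they are, and a filter of 200 CPM keeps 6 of the 10 factors. All 60 factor ratios under 6 alternatives stayed within their counting intervals. The largest library difference in share of cells, that of Sox10, was 6.50 points without thinning and 22.0 points for at least 2 UMIs, against 11.6. The mean number of factors per cell was 6.07 without thinning and 1.91 at 500 UMIs, against 5.22, since a shallower cell shows fewer genes. The count of pairs past 1.5 was 0 under each of 3 alternatives, but 30 of the 45 pairs could not reach it after thinning to 2400 UMIs. Nkx2-2 rests on 604 UMIs, and COP/NFOL on 19 cells.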
